A study of Mus musculus with 12 samples.

Results

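T cells answer a signal from the T cell receptor (TCR) with a burst of early genes, and 41 such genes were followed here across 5 groups of mouse T cells. The list holds reporters of TCR signal strength, AP-1 factors, other immediate-early genes, feedback inhibitors of the MAP kinase pathway, genes of the NF-kB pathway and genes of the calcium-NFAT pathway. A gene was taken where a probe set of the array named it and no other gene, and of several such probe sets the brightest over the 12 arrays was kept. All 41 were found, among 22180 genes named on the array. Dusp6, Irf8, Jund and Pim1 had more than 1 probe set. The nuclear receptor gene Nr4a2 read between 2.90 and 3.42 on the 12 arrays, below the level of 3.45 called dim here (the 30th percentile over all named probe sets), and was not tested. The other 40 are among the 16667 genes tested.

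Each array carried RNA of a single sample. The 5 groups were ROR- cells of the BALB/c strain (3 arrays), iNKT17 cells of BALB/c (3), ROR- cells of the B6 strain (2), iNKT17 cells of B6 (2) and gamma-delta 17 cells of B6 (2), and the stated subject of the series is how iNKT cells of the strains differ. Invariant natural killer T (iNKT) cells are T cells with a nearly fixed TCR for lipids shown by CD1d, and the subset called iNKT17 makes interleukin 17. Gamma-delta 17 cells are T cells with a gamma-delta receptor that make the same cytokine. ROR- is the name the labels give the third population, with no further account of it. No treatment, age or organ is given, and the extraction protocol speaks of frozen tissue where the labels speak of cells. The replicates are numbered, but no label says that they came from separate animals, so the p-values reflect no more than the scatter of these samples, and that scatter may be technical.

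A TCR signal runs along 3 routes. Calcium frees the phosphatase calcineurin, which moves NFAT factors to the nucleus, the Ras route switches on MAP kinases, which raise AP-1 and EGR factors, and protein kinase C opens the way for NF-kB. Many genes that rise first then restrain the signal: the dual-specificity phosphatases (Dusp genes) and the Sprouty proteins dampen MAP kinases, and several NF-kB targets hold NF-kB back. In iNKT cells a strong TCR signal during development raises Egr2, which in turn raises Zbtb16, the gene of the lineage factor PLZF. Part of the same set, above all Fos, Fosb, Jun, Ier and Dusp1, is also known to rise within minutes when tissue is broken up or cells are stressed. Spread between arrays of a group and difference between groups were therefore measured separately.

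The 250 bases before the start site are shown for 6 genes: Fosb, Fos and Jun, which varied widely between arrays of a group, and Spry2, Ier3 and Dusp2, which were among the 5 genes with the largest falls in iNKT17 cells. The sequences are those of RefSeq on the mouse build GRCm38.p6, read 5′ to 3′ on the strand of the gene. Fosb lies on the minus strand at chr7:19310046-19310295, Jun on the minus strand at chr4:95052223-95052472 and Spry2 on the minus strand at chr14:105896820-105897069. Fos lies on the plus strand at chr12:85473640-85473889, Ier3 on the plus strand at chr17:35821463-35821712 and Dusp2 on the plus strand at chr2:127335909-127336158. Capitals mark matches to the EGR motif GCGNGGGCG or to the kappa-B motif, searched on both strands.
Fosb: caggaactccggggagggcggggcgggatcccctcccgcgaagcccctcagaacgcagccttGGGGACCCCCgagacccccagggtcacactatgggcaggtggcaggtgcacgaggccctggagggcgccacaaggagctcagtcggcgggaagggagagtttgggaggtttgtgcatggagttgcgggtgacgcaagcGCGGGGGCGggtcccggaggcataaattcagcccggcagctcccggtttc
Fos: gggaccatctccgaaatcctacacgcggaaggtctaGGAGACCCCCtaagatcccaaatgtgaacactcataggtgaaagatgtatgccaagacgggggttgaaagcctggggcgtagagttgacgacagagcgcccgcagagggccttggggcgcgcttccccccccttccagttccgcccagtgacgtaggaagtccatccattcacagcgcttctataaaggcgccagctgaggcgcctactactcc
Jun: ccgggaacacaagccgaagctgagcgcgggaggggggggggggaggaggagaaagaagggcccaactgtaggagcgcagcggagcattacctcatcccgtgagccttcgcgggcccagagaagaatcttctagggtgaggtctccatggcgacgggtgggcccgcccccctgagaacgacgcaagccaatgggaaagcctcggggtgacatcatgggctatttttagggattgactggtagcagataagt
Spry2: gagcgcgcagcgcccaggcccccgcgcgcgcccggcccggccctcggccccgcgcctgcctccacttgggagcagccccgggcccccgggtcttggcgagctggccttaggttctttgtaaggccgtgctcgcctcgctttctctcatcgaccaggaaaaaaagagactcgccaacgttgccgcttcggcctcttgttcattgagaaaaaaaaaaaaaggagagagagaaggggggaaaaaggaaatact
Ier3: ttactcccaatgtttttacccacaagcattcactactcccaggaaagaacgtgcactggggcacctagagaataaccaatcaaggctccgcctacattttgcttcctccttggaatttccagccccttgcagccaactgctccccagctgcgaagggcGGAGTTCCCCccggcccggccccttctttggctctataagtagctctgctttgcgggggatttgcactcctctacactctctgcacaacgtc
Dusp2: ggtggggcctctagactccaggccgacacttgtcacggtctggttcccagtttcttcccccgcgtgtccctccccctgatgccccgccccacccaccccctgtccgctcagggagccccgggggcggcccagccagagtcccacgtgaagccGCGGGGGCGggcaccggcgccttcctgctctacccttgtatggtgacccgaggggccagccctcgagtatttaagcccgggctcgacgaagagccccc

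Fosb held both an EGR match, 50 to 42 bases before the start site, and a kappa-B match. Fos and Ier3 held a kappa-B match and Dusp2 an EGR match, while Jun and Spry2 held neither. Promoters were used for 33 of the 41 genes. Each of the others either had no promoter sequence at hand or lay on a single chromosome that the search left out. How many fell to each reason was not recorded. The exclusion of that chromosome was not applied to the share of all genes. The motifs of the genes without a promoter here are thus not known. The EGR motif was present in 8 of these 33 (24.2%) and in 5.33% of all genes with promoters of the same length, a gene counting where any of its promoters held the motif, and the members with it were Btg2, Dusp2, Fosb, Fosl2, Gadd45b, Nr4a1, Nr4a2 and Zfp36. The kappa-B motif was also present in 8 (24.2%, against 4.46% of all genes), in Fos, Fosb, Fosl2, Ier3, Nfkbia, Nfkbid, Rel and Tnfaip3. The CArG box stood in Dusp5, Egr2 and Zfp36 (9.09%, against 1.62%), and the cyclic AMP response element TGACGTCA in Btg2, Dusp1, Nfkbid and Rcan1 (12.1%, against 1.77%). The AP-1 motif TGANTCA (6.06%, against 7.82%) and the NFAT core GGAAA (51.5%, against 58.8%) stood somewhat below the share of all genes. Only Fosb among the 6 sequences held both EGR and kappa-B matches, and there they did not overlap. A match is a string of letters, and no binding was measured.

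The arrays as a whole give the setting. T-lineage genes were bright on all arrays (mean of 5 markers, 9.85 to 10.89, log2 level). The mean of 6 type 17 markers was 8.15 to 9.30 on the iNKT17 and gamma-delta 17 arrays and 4.50 to 6.26 on the ROR- arrays, and Zbtb16 read 7.34 to 9.27 on all 12, the gamma-delta 17 arrays included. Of the 5 ROR- arrays, BALB/c replicate 2 stood apart with 7.0 for the interleukin 23 receptor gene Il23r, which read 2.93 to 3.67 on the other 4. Gamma-delta 17 replicate 1 carried neutrophil genes: S100a8 read 9.30 there and 2.14 to 2.44 elsewhere, and S100a9 9.0 against 3.45 to 3.98. The means of the B cell, myeloid and epithelial with stromal marker lists stayed between 3.62 and 4.58 on all arrays.

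**Figure D1:**
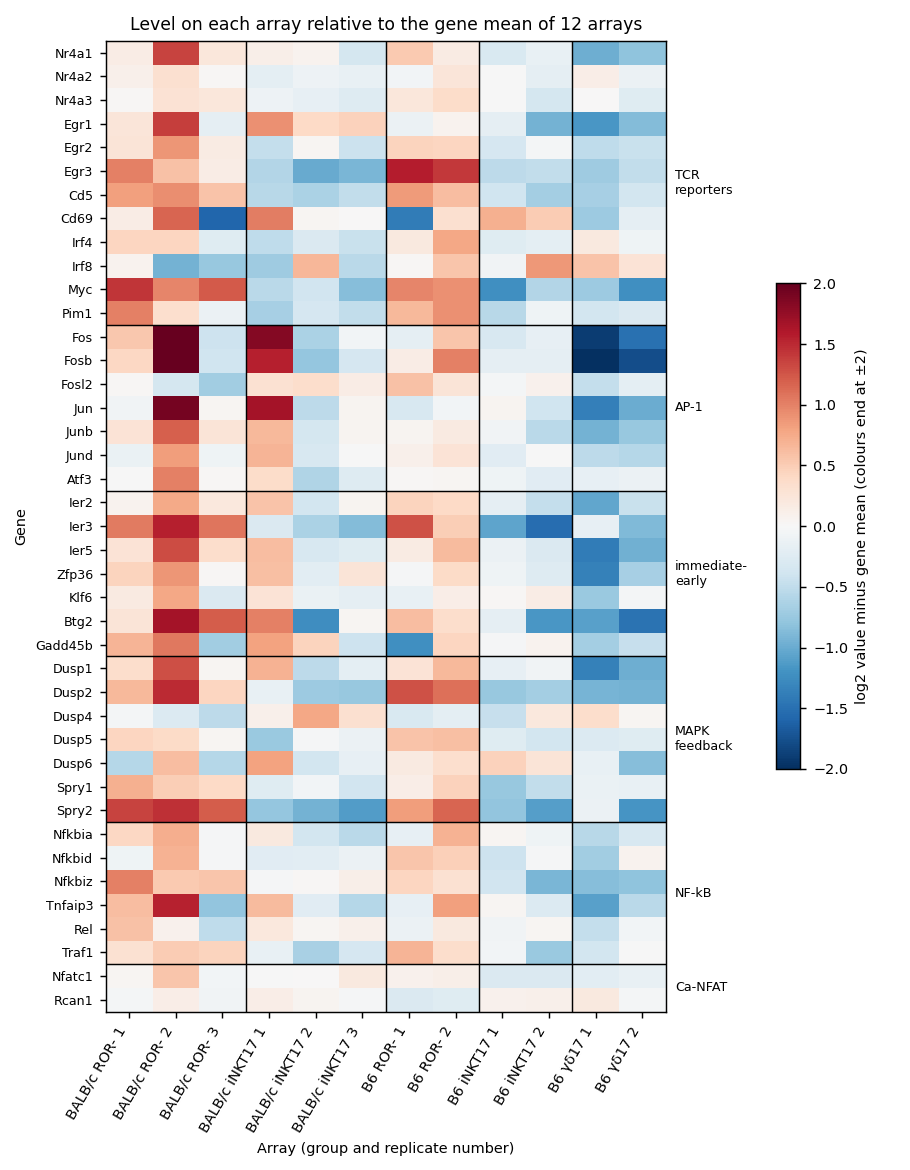
Value of each of the 41 genes (rows, by role) on each of the 12 arrays (columns, by group and replicate number), as log2 value minus the mean of that gene over the 12 arrays; colours end at 2 log2 units either way. The ROR- columns are red in rows such as Egr3, Cd5, Myc and Spry2. The AP-1 rows other than Fosl2 stand highest on 2 single arrays, BALB/c ROR- replicate 2 and BALB/c iNKT17 replicate 1.

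The first comparison asked how the early-response genes differ between iNKT17 and ROR- cells of the same strain, as the mean of both strains. In iNKT17 cells 14 of the 40 tested genes fell and 0 rose (limma, adjusted p under 0.05 over all 16667 genes), against 5.81% of all genes tested that fell and 6.49% that rose, 12.3% in all. That is 35.0% of the genes followed. Their median difference was -0.49 log2 units and that of all genes tested -0.004, and 32 of the 40 lay below 0. The falls lay mainly among the reporters of TCR signal (7 of 11 tested) and the MAP kinase feedback genes (4 of 7). Of the NF-kB genes 2 of 6 fell, and of the other immediate-early genes 1 of 7. None of the 7 AP-1 genes and neither calcium-NFAT gene passed; among the AP-1 genes none had an unadjusted p under 0.05 either.

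Among the reporters of TCR signal, Cd5, Egr3 and Myc had the largest falls. Cd5, a surface receptor whose level follows the strength of the TCR signal and which dampens it, read 9.86, 9.96 and 9.61 on the BALB/c ROR- arrays, 8.48, 8.41 and 8.55 on the BALB/c iNKT17 arrays, 9.89 and 9.66 in B6 ROR-, 8.64 and 8.35 in B6 iNKT17, and 8.36 and 8.67 in gamma-delta 17 cells. The lowest ROR- value, 9.61, lay well above the highest value of the other groups, 8.67, and no group had an SD above 0.22. Cd5 fell by 1.31 ± 0.11 log2 units (SE; 2.47-fold) in iNKT17 cells, with an adjusted p of 8.33e-06 in limma. Egr3, an early growth response factor raised by NFAT and MAP kinases, read 6.61, 6.19 and 5.75 in BALB/c ROR-, 5.01, 4.58 and 4.67 in BALB/c iNKT17, 7.17 and 7.01 in B6 ROR-, 5.07 and 5.11 in B6 iNKT17, and 4.88 and 5.10 in gamma-delta 17 cells. Here too no ROR- array overlapped another group, and the ROR- arrays of B6 lay above those of BALB/c. Egr3 fell by 1.71 ± 0.15 (adjusted p = 1.49e-05).

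Myc, the growth and metabolism factor, read 10.45, 10.01 and 10.25 in BALB/c ROR-, 8.48, 8.64 and 8.18 in BALB/c iNKT17, 10.0 and 9.93 in B6 ROR-, 7.79 and 8.44 in B6 iNKT17, and 8.30 and 7.80 in gamma-delta 17 cells. Its lowest ROR- value, 9.93, was more than 1 log2 unit above its highest value elsewhere, 8.64. Myc fell by 1.83 ± 0.16 (3.55-fold, adjusted p = 1.08e-05 in limma). The remaining reporters that fell did so by less: Pim1, a kinase that supports growth, by 1.0 ± 0.19, Egr2 by 0.68 ± 0.15, Irf4, a factor whose level is graded by TCR signal, by 0.66 ± 0.16, and the nuclear receptor gene Nr4a3 by 0.41 ± 0.10. Egr2 no longer passed when B6 ROR- replicate 1 was left out (adjusted p = 0.0516) or without B6 iNKT17 replicate 1 (0.0613). Irf4 was lost without B6 ROR- replicate 2 (0.0765), B6 iNKT17 replicate 1 (0.0551) or replicate 2 (0.0512), and Nr4a3 without B6 ROR- replicate 2 (0.0843), B6 iNKT17 replicate 2 (0.111) or BALB/c iNKT17 replicate 3 (0.0521).

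Not every reporter of TCR signal passed. Nr4a1 encodes Nur77, the nuclear receptor most used as a TCR reporter, and read 6.23, 7.43 and 6.32 in BALB/c ROR-, 6.19, 6.15 and 5.74 in BALB/c iNKT17, 6.60 and 6.25 in B6 ROR-, 5.78 and 5.94 in B6 iNKT17, and 5.11 and 5.28 in gamma-delta 17 cells. All ROR- arrays lay above all iNKT17 arrays, by little in BALB/c, and the difference of -0.60 ± 0.21 had an adjusted p of 0.0999; without BALB/c ROR- replicate 1 it was 0.0481. Egr1 differed by -0.21 ± 0.27 and Irf8 by 0.22 ± 0.30. Cd69, the activation marker that also keeps lymphocytes in tissue, read 8.17, 9.19 and 6.44 in BALB/c ROR-, 9.04, 8.06 and 8.04 in BALB/c iNKT17, 6.62 and 8.34 in B6 ROR-, 8.74 and 8.53 in B6 iNKT17, and 7.30 and 7.84 in gamma-delta 17 cells. Its ROR- arrays spanned the range of all the others, and the difference was 0.80 ± 0.48 (adjusted p = 0.361).

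The feedback inhibitors of MAP kinase held the gene with the largest fall. Spry2, a Sprouty protein that blocks Ras signalling, read 7.03, 7.15 and 6.89 in BALB/c ROR-, 4.91, 4.73 and 4.56 in BALB/c iNKT17, 6.52 and 6.84 in B6 ROR-, 4.89 and 4.58 in B6 iNKT17, and 5.56 and 4.50 in gamma-delta 17 cells. Its ROR- values were high on all 5 arrays, and the highest value elsewhere was that of gamma-delta 17 replicate 1, the array with neutrophil genes. Spry2 fell by 2.11 ± 0.18 (4.33-fold, adjusted p = 1e-05 in limma). Dusp2, a nuclear phosphatase of MAP kinases, read 7.83, 8.68 and 7.62 in BALB/c ROR-, 7.04, 6.46 and 6.43 in BALB/c iNKT17, 8.47 and 8.29 in B6 ROR-, 6.43 and 6.51 in B6 iNKT17, and 6.26 and 6.24 in gamma-delta 17 cells. The highest ROR- and the highest iNKT17 value came from BALB/c ROR- replicate 2 and BALB/c iNKT17 replicate 1, and the groups still did not overlap. Dusp2 fell by 1.65 ± 0.19 (adjusted p = 0.000125).

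Spry1 fell by 0.84 ± 0.11 and the phosphatase gene Dusp5, which acts on ERK, by 0.74 ± 0.14. Spry1 ran from 5.07 to 5.65 on the ROR- arrays and from 4.18 to 4.88 on the iNKT17 arrays, and Dusp5 from 6.32 to 6.88 and from 5.54 to 6.25, so neither overlapped. The other phosphatases did not pass: Dusp1 differed by -0.58 ± 0.26 (adjusted p = 0.212 in limma), Dusp6 by 0.19 ± 0.28 and Dusp4 by 0.40 ± 0.17 (adjusted p = 0.168). The feedback genes thus did not move as 1 group.

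Ier3, an immediate-early gene that acts on survival and ERK signalling, was the member of its role group that fell. It read 7.33, 7.84 and 7.36 in BALB/c ROR-, 6.0, 5.66 and 5.42 in BALB/c iNKT17, 7.56 and 6.78 in B6 ROR-, 5.23 and 4.77 in B6 iNKT17, and 6.13 and 5.41 in gamma-delta 17 cells. Ier3 was lower on every iNKT17 and gamma-delta 17 array than on any ROR- array, and fell by 1.99 ± 0.20 (3.98-fold, adjusted p = 4.38e-05 in limma). Btg2, which slows the cell cycle, differed by -1.13 ± 0.40 and did not pass (adjusted p = 0.093); without BALB/c iNKT17 replicate 1 the difference was -1.40 (adjusted p = 0.0216), and without BALB/c ROR- replicate 1 it was -1.33 (0.0465). Ier2 (-0.50 ± 0.20) and Ier5 (-0.61 ± 0.24) also did not pass, and both did without BALB/c iNKT17 replicate 1, at 0.0481 and 0.0433. Zfp36, which encodes the mRNA decay factor tristetraprolin, Klf6 and Gadd45b differed by -0.29 ± 0.21, -0.07 ± 0.20 and 0.18 ± 0.38.

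In the NF-kB group, Nfkbiz and Traf1 fell. Nfkbiz encodes the nuclear regulator I-kappa-B zeta and read 8.49, 8.02 and 8.04 in BALB/c ROR-, 7.47, 7.51 and 7.60 in BALB/c iNKT17, 7.92 and 7.79 in B6 ROR-, 7.10 and 6.58 in B6 iNKT17, and 6.64 and 6.68 in gamma-delta 17 cells. Its arrays did not overlap between ROR- and the others, and it fell by 0.84 ± 0.13 (adjusted p = 0.000776 in limma). Traf1, an adaptor of tumour necrosis factor receptors, fell by 0.85 ± 0.15, from 7.89 to 8.26 on the ROR- arrays to 6.84 to 7.53 on the iNKT17 arrays. Nfkbid, another nuclear I-kappa-B protein, differed by -0.56 ± 0.18 (adjusted p = 0.0651); it passed without BALB/c ROR- replicate 1 (0.0466) and without either gamma-delta 17 array (0.0369). Nfkbia (-0.45 ± 0.20), the A20 gene Tnfaip3 (-0.48 ± 0.40) and the NF-kB subunit gene Rel (0.01 ± 0.18) did not pass. Of the calcium-NFAT genes, Nfatc1 differed by -0.25 ± 0.12 and the calcineurin inhibitor gene Rcan1 by 0.20 ± 0.09, with adjusted p of 0.225 and 0.172.

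**Figure D2:**
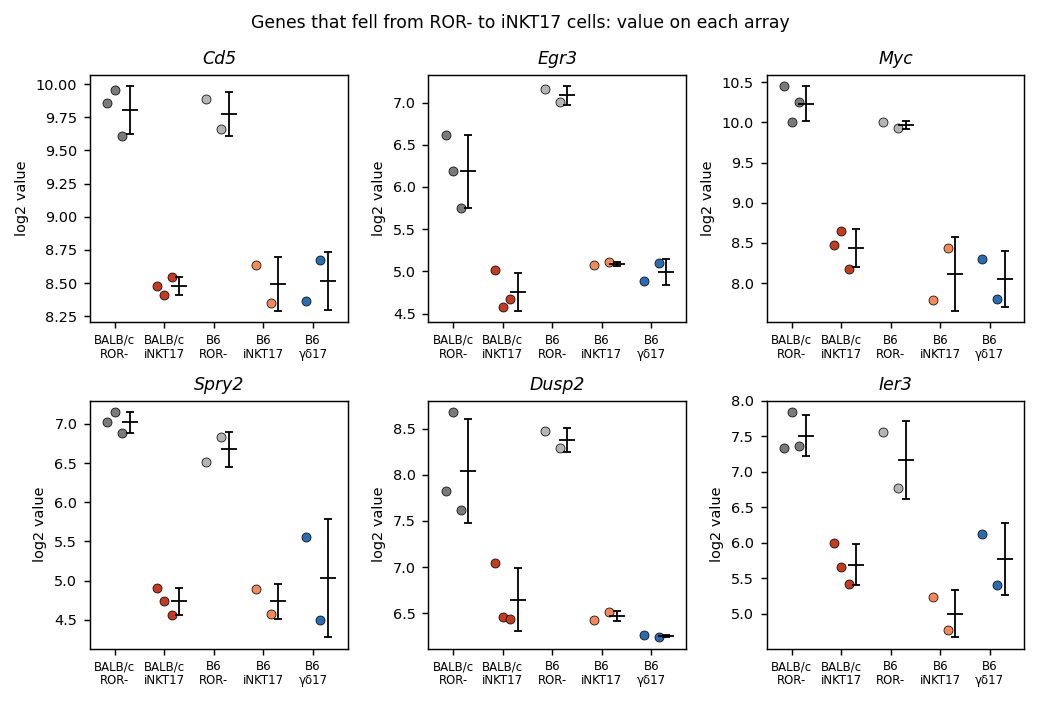
log2 value on each array (points), with group mean and SD (bars), of Cd5, Egr3, Myc, Spry2, Dusp2 and Ier3 in the 5 groups of 2 or 3 arrays. In all 6 genes the ROR- points lie above all iNKT17 and gamma-delta 17 points; for Cd5 they lie at 9.61 or above, against 8.67 or below.

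In 13 of the 41 genes every ROR- array lay above every iNKT17 array, a pattern found in 4.39% of all genes tested, and in the same 13 every ROR- array also lay above both gamma-delta 17 arrays (3.48% of all genes tested). They were Nr4a1, Nr4a3, Egr2, Egr3, Cd5, Myc, Ier3, Dusp2, Dusp5, Spry1, Spry2, Nfkbiz and Traf1. Of the 14 genes that fell, 11 did so whichever single array was left out and under every alternative tried: Cd5, Dusp2, Dusp5, Egr3, Ier3, Myc, Nfkbiz, Pim1, Spry1, Spry2 and Traf1. With bulk RNA, fewer cells that carry a transcript and less of it per cell cannot be told apart.

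Within each strain the same direction was seen with fewer calls. In BALB/c 11 genes fell and 0 rose in iNKT17 cells (of all genes tested 2.91% fell and 4.06% rose), namely Egr2, Egr3, Cd5, Myc, Pim1, Ier3, Dusp2, Spry1, Spry2, Nfkbiz and Traf1. In B6 11 fell and 0 rose (of all genes tested 3.16% fell and 2.83% rose), with Dusp5 and without Egr2. The difference in Spry2 was -2.28 ± 0.23 in BALB/c and -1.94 ± 0.28 in B6, that in Myc -1.80 ± 0.20 and -1.85 ± 0.24, that in Cd5 -1.33 ± 0.14 and -1.28 ± 0.17, and that in Egr3 -1.43 ± 0.19 and -2.0 ± 0.24. Cd5, Dusp2, Egr3, Ier3, Myc and Spry2 passed in both strains whichever array was left out, and Spry1 in BALB/c. In BALB/c, Egr2 was lost without any 1 of 10 arrays (adjusted p up to 0.165) and Pim1 without any 1 of 9 (up to 0.144). Nfkbiz was lost there without BALB/c ROR- replicate 1 or any BALB/c iNKT17 array (0.0693 to 0.0938), and Traf1 without BALB/c ROR- replicate 2 or 3 or iNKT17 replicate 2 or 3 (0.0795 to 0.109). In B6, Dusp5 was lost without any of the 4 B6 arrays compared (0.0985 to 0.193), Nfkbiz without ROR- replicate 1 (0.0819) or iNKT17 replicate 2 (0.0934), and Spry1 without ROR- replicate 2 (0.0657) or iNKT17 replicate 1 (0.0658). Pim1 was lost there without any 1 of 10 arrays (up to 0.283) and Traf1 without any 1 of 7 (up to 0.368). Irf4 passed in BALB/c (0.0151) and in B6 (0.0492) when BALB/c ROR- replicate 3 was left out. The count in BALB/c was 7 without BALB/c iNKT17 replicate 3, and that in B6 was 7 without either B6 ROR- array or without B6 iNKT17 replicate 2.

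Whether the cell-type difference itself depended on strain was tested as an interaction. Of the 40 genes 0 passed (limma; 0.084% of all genes tested did), 1 had an unadjusted p under 0.05, and every alternative also gave 0. That gene was Fosl2, an AP-1 subunit. It read 6.08, 5.71 and 5.37 in BALB/c ROR-, 6.37, 6.41 and 6.21 in BALB/c iNKT17, 6.64 and 6.31 in B6 ROR-, 6.02 and 6.15 in B6 iNKT17, and 5.58 and 5.86 in gamma-delta 17 cells. The iNKT17 arrays lay above the ROR- arrays in BALB/c and below them in B6. The strain difference of the difference was 1.0 ± 0.27 (adjusted p = 0.574), and the difference within BALB/c was 0.61 ± 0.17 (0.0599, or 0.014 without BALB/c ROR- replicate 1).

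Between strains, 0 of the 40 genes passed in iNKT17 cells (limma; 1.48% of all genes tested did), and 4 had an unadjusted p under 0.05: Egr1, Ier3, Spry1 and Nfkbiz. Nfkbiz was 0.69 ± 0.18 higher in BALB/c iNKT17 cells, with an adjusted p of 0.0999, and with array weights, the setting that gave 1 call, it stood at 0.70 with 0.0404. Egr1 was 1.15 ± 0.38 higher there (adjusted p = 0.204), at 8.56, 8.03 and 8.10 in BALB/c against 7.46 and 6.69 in B6. In ROR- cells 0 passed as well (1.22% of all genes did) and 3 had an unadjusted p under 0.05. Egr3 was -0.90 ± 0.22 in BALB/c relative to B6 ROR- cells (adjusted p = 0.0801), and Fosl2 -0.75 ± 0.19 (0.107). Without BALB/c ROR- replicate 1 both passed, Egr3 at -1.11 (adjusted p = 0.0163) and Fosl2 at -0.93 (0.0255); without any other single array the count was 0.

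In Fosb, Fos and Jun, the spread between arrays of a group, pooled over all groups, was larger than the difference between iNKT17 and ROR- cells as the mean of both strains. Fosb read 7.30, 9.37 and 6.48 in BALB/c ROR-, 8.44, 6.11 and 6.54 in BALB/c iNKT17, 7.03 and 7.89 in B6 ROR-, 6.70 and 6.71 in B6 iNKT17, and 4.89 and 5.11 in gamma-delta 17 cells. Fos read 6.96, 8.67 and 6.01, then 8.26, 5.79 and 6.36, then 6.24 and 6.99, then 6.11 and 6.26, then 4.52 and 4.92 in the same order of groups. Jun followed with 8.78, 10.75 and 8.89, 10.51, 8.32 and 8.89, 8.53 and 8.79, 8.90 and 8.45, and 7.49 and 7.86. In all 3 genes the highest array was BALB/c ROR- replicate 2 and the next BALB/c iNKT17 replicate 1, and the 3 BALB/c groupmates of each type spanned more than 2 log2 units in Fos and Fosb. The iNKT17 minus ROR- differences were -0.72 ± 0.54 for Fosb, -0.42 ± 0.52 for Fos and -0.11 ± 0.44 for Jun, with adjusted p of 0.486, 0.713 and 0.926 in limma. Within B6 the Fosb difference was -0.755 ± 0.835, beside group SDs of 0.604 in ROR- and 0.006 in iNKT17 cells.

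**Figure D3:**
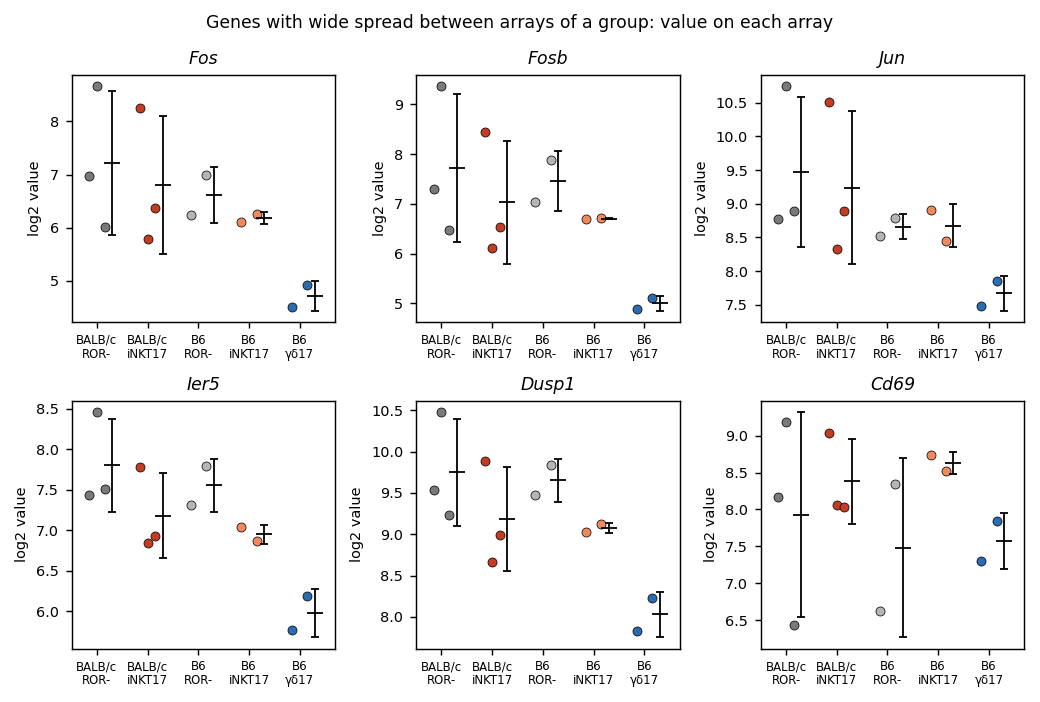
log2 value on each array (points), with group mean and SD (bars), of Fos, Fosb, Jun, Ier5, Dusp1 and Cd69 in the 5 groups. The BALB/c groups hold 1 high array each in Fos, Fosb and Jun, and the 2 gamma-delta 17 arrays lie lowest in every gene but Cd69.

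The pooled within-group SD puts numbers on this. Its median was 0.369 log2 units over the 40 genes and 0.180 over all genes tested, and 36 of the 40 lay above that all-gene median. The widest were Fosb (1.06), Fos (1.02), Cd69 (0.938) and Jun (0.864), and the tightest Rcan1 (0.098), Nr4a3 (0.149), Spry1 (0.164) and Cd5 (0.165). For the 14 genes that fell the median SD was 0.27, and a median of 91.1% of their variance lay between groups. For the 26 others the median SD was 0.413 and 57.2% of the variance lay between groups, against 50.1% for all genes tested. A small within-group SD is part of what lets a gene pass the test, so these figures describe the genes and are no separate support for the calls.

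**Figure D4:**
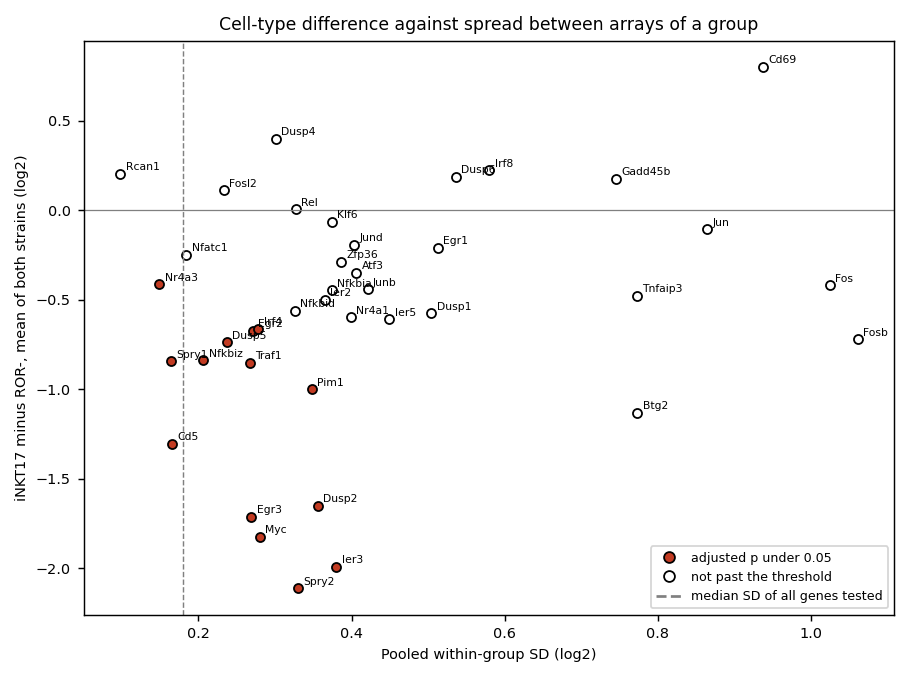
Cell-type difference averaged over both strains, iNKT17 minus ROR- (vertical, log2), against the pooled within-group SD (horizontal, log2) for the 40 tested genes; filled points passed an adjusted p under 0.05, and the dashed line marks the median SD of all genes tested, 0.180. The genes that fell lie at SDs of 0.38 or less, and Fos, Fosb, Jun and Cd69 lie far to the right.

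The spread was shared between genes. On BALB/c ROR- replicate 2 the 7 AP-1 genes lay on average 0.90 log2 units above their group mean, and on BALB/c iNKT17 replicate 1 0.83 above it, while the other 10 arrays lay between -0.62 and 0.13. The 15 measured genes of a list of heat-shock and dissociation genes, none of them among the 41, lay 0.83 and 0.69 above their group means on these same arrays, and between -0.79 and 0.27 on the others. The 14 genes that fell lay 0.12 and 0.04 above their group means on the same arrays, within a range of -0.22 to 0.12 over all 12, but they had passed a test that favours a small spread within groups, so this is a description and no contrast. Of the 26 other genes, 24 and 22 lay above their group mean there. BALB/c ROR- replicate 2 is also the ROR- array with a high Il23r. What the arrays share beyond these values is not stated in the labels, and whether handling of the cells set the AP-1 levels was not tested.

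**Figure D5:**
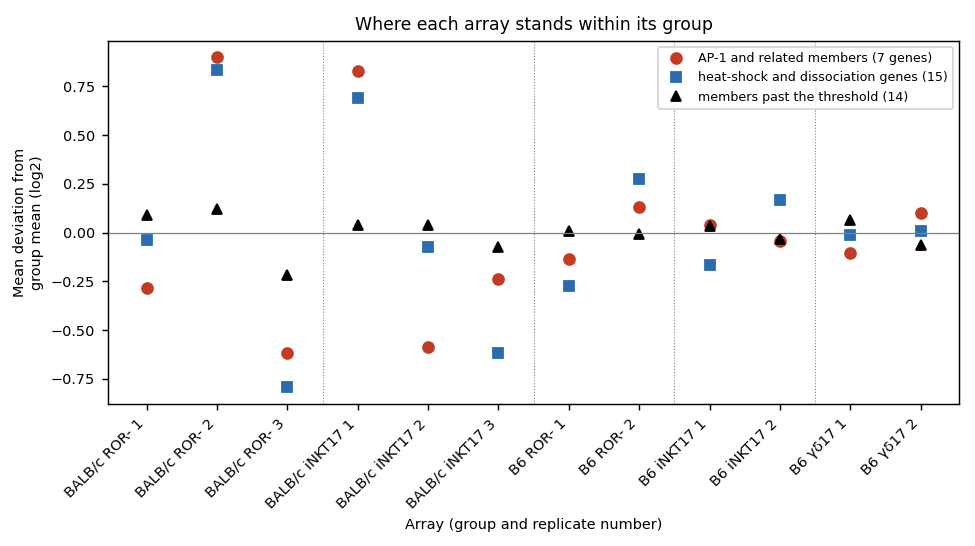
Mean deviation of each array from its own group mean (log2) for the 7 AP-1 genes (circles), 15 heat-shock and dissociation genes (squares) and the 14 genes that fell in iNKT17 cells (triangles). Circles and squares stand highest on BALB/c ROR- replicate 2 and BALB/c iNKT17 replicate 1, where the triangles, genes whose choice favours a small spread within groups, lie at 0.12 and 0.04.

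The cell-type difference was measured again with these levels taken into account. With the array mean of the heat-shock and dissociation genes as a covariate, all 14 genes still fell in the average over strains, and Cd69 rose by 1.31 (adjusted p = 0.0087 in limma). The 14 had already passed a test that favours a small spread within groups. That they still fell is thus no separate support for the calls. Within strains the covariate ended calls: in BALB/c 9 of the 11 genes still fell, without Egr2 (0.0663) and Pim1 (0.0712), and in B6 9 of the 11, without Pim1 (0.0878) and Traf1 (0.067), while Cd69 rose there (0.031). Without both BALB/c arrays that stood high, a setting chosen after the data were seen, 12 of the 14 still fell. Irf4 and Nr4a3 were lost, at adjusted p of 0.0725 and 0.0646, and Btg2 (-1.25), Dusp1 (-0.57) and Ier5 (-0.60) passed in addition. In BALB/c alone the count was then 7, where Egr2, Pim1, Nfkbiz and Traf1 no longer passed. Of the 15 heat-shock and dissociation genes themselves, 2 fell in iNKT17 cells (13.3%, against 5.81% of all genes tested) and 0 rose, and 14 lay below 0 with a median of -0.13. The 2 were Ppp1r15a (-1.29 ± 0.38) and the small Maf factor gene Maff (-0.66 ± 0.13).

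Gamma-delta 17 cells were set against ROR- cells of B6, the same 2 arrays that served the B6 iNKT17 comparison, so the values of both comparisons share their controls. In gamma-delta 17 cells 13 of the 40 genes fell and 0 rose (limma; of all genes tested 3.41% fell and 2.61% rose), and the median difference was -0.94 against 0.011 for all genes. The difference in Egr3 was -2.09 ± 0.24 in gamma-delta 17 cells, beside -2.0 ± 0.24 in B6 iNKT17 cells. Dusp2 stood at -2.13 ± 0.30 beside -1.91 ± 0.30, Myc at -1.92 ± 0.24 beside -1.85 ± 0.24, Spry2 at -1.65 ± 0.28 beside -1.94 ± 0.28, Cd5 at -1.26 ± 0.17 beside -1.28 ± 0.17, and Nfkbiz at -1.20 ± 0.20 beside -1.02 ± 0.20. These 6 passed in gamma-delta 17 cells whichever array was left out. The other 7 were Egr2, Pim1, Ier2, Ier3, Ier5, Dusp1 and Dusp5. Of these, Egr2, Pim1, Ier5, Dusp1 and Dusp5 no longer passed whichever gamma-delta 17 array was left out. Ier2 was lost without replicate 1, the array with neutrophil genes, where it stood at -0.86. Either fit leaves 1 array in that group. Without replicate 1 and without replicate 2, Ier5 stood at -1.362 and -1.785, Dusp1 at -1.43 and -1.82 and Pim1 at -1.07 and -1.138. Egr2 stood at -0.879 and -0.938 in these fits, and Dusp5 at -0.825 and -0.862. Over all 12 arrays left out in turn, Pim1 was lost 10 times, Egr2 9 times, Dusp5 8 times, Ier2 and Dusp1 7 times each and Ier5 4 times. Ier3 was lost without gamma-delta 17 replicate 2 (0.162) or B6 ROR- replicate 1 (0.192). What neutrophil transcripts added to the values of these genes was not tested.

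In 10 of the 41 genes both gamma-delta 17 arrays lay below all 10 others, a pattern in 3.62% of all genes tested: Nr4a1, Fos, Fosb, Jun, Junb, Jund, Ier5, Zfp36, Dusp1 and Dusp2. These are 5 of the 7 AP-1 genes, 2 of the 7 other immediate-early genes, 2 phosphatases and Nr4a1. None of the 7 AP-1 genes passed against B6 ROR- cells, and 5 of them had an unadjusted p under 0.05. The mean level of the 7 AP-1 genes was 6.35 and 6.55 on these arrays and 6.99 to 8.73 on the rest. Relative to B6 ROR- cells, Dusp1, a phosphatase of stress-activated MAP kinases, read 7.83 and 8.22 against 9.47 and 9.84, and fell by 1.63 ± 0.41 (adjusted p = 0.0377). Ier5 read 5.77 and 6.19 against 7.32 and 7.79 and fell by 1.57 ± 0.37 (adjusted p = 0.0255). Fosb differed by -2.46 ± 0.84 and Fos by -1.89 ± 0.81 and did not pass (adjusted p of 0.126 and 0.24 in limma); without BALB/c ROR- replicate 2 the adjusted p of Fosb was 0.0403. Nr4a1 (-1.23 ± 0.33) and Zfp36 (-1.19 ± 0.32) just missed the threshold at 0.0513 and 0.0517, and Fosl2 (-0.75 ± 0.21) at 0.0629. Nr4a1 passed without any 1 BALB/c ROR- array (0.0388, 0.0024 and 0.0492), Fosl2 without BALB/c ROR- replicate 1 (0.0282) or 3 (0.027), and Zfp36 without 1 of 5 arrays, among them BALB/c ROR- replicate 2 (0.0389).

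The model shares 1 estimate of error among all groups, so the spread of the BALB/c arrays enters these SEs. Fitted on the gamma-delta 17 and B6 ROR- arrays alone, 20 genes fell, among them Fos (adjusted p = 0.0122), Fosb (0.00506), Jun (0.0372), Junb (0.0184) and Jund (0.0455), and Ier3 was lost (0.0682). Without the 2 high BALB/c arrays, which belong to neither group, 19 fell, and Pim1 was lost (0.0829). With the heat-shock and dissociation genes as a covariate the count was 8, without Dusp5, Egr2, Ier2, Ier3 and Pim1. Leaving out B6 ROR- replicate 1 gave 6 genes, leaving out B6 ROR- replicate 2 gave 7, and leaving out either B6 iNKT17 array or BALB/c iNKT17 replicate 3 gave 8.

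Set directly against each other in B6, iNKT17 and gamma-delta 17 cells gave 0 genes past the threshold in limma and in every alternative (0.168% of all genes tested passed). Unadjusted, 5 had a p under 0.05: Ier5 (0.97 ± 0.37), Zfp36 (0.84 ± 0.32) and Dusp1 (1.05 ± 0.41) were higher in iNKT17 cells, and Ier3 (-0.77 ± 0.32) and Spry1 (-0.49 ± 0.17) lower, with adjusted p from 0.443 to 0.536. These genes were thus not shown to differ between the 2 type 17 populations, nor shown to be alike.

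The rest of the pathway did not move as a block. Of 38 listed genes of the TCR signalling machinery 27 were tested, and as the mean of both strains 4 rose and 5 fell in iNKT17 cells (33.3% in all, against 12.3% of all genes tested). Those with the largest changes were the Tec kinase gene Txk (fell by 1.58 ± 0.11), Malt1, a protease on the way to NF-kB (1.42 ± 0.08), Prkcq, which encodes protein kinase C theta (1.27 ± 0.13), and Nfatc2 (0.48 ± 0.10). The other listed machinery genes are not analysed here. Of 23 negative regulators of the TCR 2 rose and 8 fell (43.5% in all), led by the diacylglycerol kinase gene Dgka (fell by 1.85 ± 0.23), Ubash3a (1.16 ± 0.11), Rasa3 (0.99 ± 0.14) and the adaptor gene Pag1 (0.88 ± 0.13). Of 25 other TCR-induced genes 5 rose and 8 fell (52.0% in all): the chemokine gene Xcl1 fell by 4.64 ± 0.43, the interferon gene Ifng by 3.75 ± 0.58 and Tagap by 1.86 ± 0.39, while Pdcd1, the gene of the inhibitory receptor PD-1, rose by 2.52 ± 0.12. Xcl1 and Ifng are also genes of the type 1 program. The 6 type 1 and natural killer markers, Ifng among them, fell together in iNKT17 cells, with a median of -4.13.

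In gamma-delta 17 cells against B6 ROR- cells the same lists gave 1 rise and 2 falls among the 27 machinery genes, 0 and 6 among the 23 negative regulators, 3 and 7 among the 25 other TCR-induced genes, and 0 and 1 among the 15 heat-shock and dissociation genes. The falls were 7.4%, 26.1%, 28.0% and 6.7% of these lists, against 3.41% of all genes tested, of which 2.61% rose. Malt1 fell by 1.98 ± 0.13 and Txk by 1.09 ± 0.17, and Pdcd1 rose by 2.15 ± 0.18. Nfatc2, by contrast, stood at 0.02 ± 0.16 (adjusted p = 0.97 in limma). Prkcq (-0.71 ± 0.20, adjusted p = 0.0572) and Rasa3 (-0.34 ± 0.22, 0.486) did not pass.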

How the data were processed

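RNA of 12 samples was measured on Affymetrix whole-transcript arrays, 1 array a sample, in groups of 2 or 3 taken from the strain and cell type in the labels; the number of arrays limits the precision of every value. The authors deposited processed values that were read as log2, per the values themselves and the R package oligo named in the submitters' processing notes; log base, version, summarisation and normalisation stay not given in the sources used here. Deposited values were used unchanged. Array medians lay between 4.10 and 4.30. Of 41345 probe sets, 23521 carried 1 gene symbol in the platform annotation, which can be old, 1814 several and 16010 none. The brightest probe set stood for a gene. Genes entered the test if 2 or more arrays exceeded the dim level, the 30th percentile over named probe sets (3.45), which is no measured background.

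A group-means model was fitted with limma 3.58.1 (lmFit and eBayes) in R 4.3.3 to all 12 arrays (7 residual and 4.50 prior degrees of freedom), with Benjamini-Hochberg adjustment over 16667 genes, a threshold of 0.05 and 8 comparisons. The script was tested on simulated data. Differences are log2 estimates ± SE and group spread is SD. Within-group SD and the share of variance between groups are descriptions. Alternatives were no filter and a stricter one, both scalings between arrays (median centring and quantile), the mean of probe sets, array weights, a trend with robust variance, only the groups compared, the replicate number as a block, the heat-shock and dissociation genes as a covariate, and each array left out. All 41 genes were named whatever their values, and of each other list up to 4 genes past the threshold with the largest change. The genes and lists were chosen with earlier results of these data known. Promoters are those of a RefSeq table on GRCm38.p6, matched by symbol; a gene with several start sites counts if any window holds the motif.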

Additional observations from a re-analysis of the deposited data

How the results depend on the processing

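As the mean of both strains, 14 genes fell, and the count ran from 12 to 17 when 1 array was left out; in BALB/c (11) it ran from 7 to 11, in B6 (11) from 7 to 11, and for gamma-delta 17 minus ROR- (13) from 6 to 15. Strain in ROR- cells gave 0 to 2, and the interaction, strain in iNKT17 cells and iNKT17 minus gamma-delta 17 gave 0 each time. Of the other settings, 4 moved a count by more than 1.5 times: 7 in BALB/c without both high arrays (added after the data were seen), 1 for strain in iNKT17 cells with array weights, and, for gamma-delta 17 minus ROR-, 20 with only the groups compared and 8 with the heat-shock covariate. For the 2 settings with fewer arrays the construction changes the error estimate; otherwise the cause was not tested. No member named with a call changed direction under any setting. Scaling moved the median of an array by at most 0.106.

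Deviations from the group mean were compared between same-numbered arrays of different groups. The 21 such pairs correlated from -0.46 to 0.465, with a median of -0.013 and 8 over 0.1. The 36 differently numbered pairs ran from -0.465 to 0.519, with a median of 0.029 and 13 over 0.1. Deviations within a group sum to 0, which ties these correlations to each other. The check thus gave no sign of pairing by number and cannot exclude it. With the replicate block the counts were 15, 12 in BALB/c, 8 in B6, 12 for gamma-delta 17 minus ROR-, and 0 in the other 4 comparisons.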

Other observations

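The genes with more than 1 probe set read at different levels on them. For Pim1 the brighter probe set averaged 7.27 over the 12 arrays and the other 4.09, for Irf8 7.04 and 4.83, for Jund 10.56 and 6.88, and for Dusp6 8.83 and 7.40. With the mean of its probe sets, the Pim1 difference between B6 iNKT17 and ROR- cells was -0.69 with an adjusted p of 0.0524 in limma, beside -1.10 and 0.0499 with the brighter one.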
